A study of Rattus norvegicus with 4 samples.

Results

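The aryl hydrocarbon receptor, its dimer partner and 4 genes that the receptor is known to induce were followed in the livers of 4 untreated rats. The 6 genes were Ahr, Arnt, Cyp1a1, Cyp1a2, Cyp1b1 and Nqo1, and all probe sets annotated to exactly 1 of them were taken, which gave 7 of the 15923 probe sets of the array and 6 of 10412 genes. Ahr had 2 probe sets and each of the other 5 genes had 1. The rats were male Sprague-Dawley animals, a laboratory outbred stock, aged 10 to 12 weeks, with standard feed and water freely given and no treatment of any kind. Each liver was hybridised to its own Affymetrix expression array, and the rats are numbered 1 to 4 as in the labels. The 4 livers form 1 group, so there was no exposed group and no comparison of groups, and a difference between rats could not be told apart from a difference between arrays.

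The aryl hydrocarbon receptor is a transcription factor that waits in the cytoplasm bound to heat shock protein 90 and enters the nucleus when it binds a planar aromatic ligand such as dioxin. There it pairs with Arnt and binds DNA at elements with the core GCGTG, next to genes such as Cyp1a1, Cyp1a2 and Cyp1b1, P450 enzymes that oxidise aromatic compounds, and Nqo1, a quinone reductase. In liver, Cyp1a2 is known to be made without an inducer, while Cyp1a1 is known as a gene that is nearly silent until the receptor is activated. Nqo1 is known to answer to Nrf2 (Nfe2l2), the transcription factor of the oxidant response, as well.

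Values are log2 signals, in which 1 unit is a doubling of the deposited signal, given per rat or as mean ± SD (n = 4). Each probe set binds with its own strength, so the signals of 2 genes cannot be read as a ratio of their transcripts. The medians of the 4 arrays were all 8.11. Many probe sets had equal values on all 4 arrays, so equal medians alone do not show that the others were on a common scale. A probe set is called above background when its mean exceeds 8.30, the 95th percentile of 79 probe sets of 64 genes of eye, brain, muscle and testis. That level sets signals of different probe sets beside each other, and a signal under it is no proof that the gene was silent. A probe set is called flat when its 4 values differ by at most 0.001, which held for 6923 probe sets, or 43.5% of the array, and the SD of a flat probe set says nothing about the animals. Defining hepatocyte markers were above background for 10 of 10 genes and bile duct markers for 0 of 4.

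Promoter sequence is shown for Cyp1a2 and Nqo1, whose signals differed most between rats, and for Cyp1b1, which held the receptor's core 2 times. Each run is the 250 bases before the gene's start, 5′ to 3′ along the gene, from RefSeq's rat assembly GRCr8, with GCGTG or its reverse complement CACGC and TATAA or its reverse complement TTATA in capitals.

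Cyp1a2, chr8:66978150-66978399, minus strand: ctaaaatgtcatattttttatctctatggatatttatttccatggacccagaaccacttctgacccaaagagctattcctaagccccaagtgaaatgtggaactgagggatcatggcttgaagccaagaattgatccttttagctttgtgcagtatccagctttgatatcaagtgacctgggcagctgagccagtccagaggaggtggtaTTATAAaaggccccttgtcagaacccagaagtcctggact
Nqo1, chr19:52220268-52220517, minus strand: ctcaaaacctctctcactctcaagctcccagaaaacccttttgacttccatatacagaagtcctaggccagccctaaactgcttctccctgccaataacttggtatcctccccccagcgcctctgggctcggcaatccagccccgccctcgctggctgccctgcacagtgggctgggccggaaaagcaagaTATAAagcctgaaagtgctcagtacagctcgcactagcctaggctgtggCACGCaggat
Cyp1b1, chr6:21094315-21094564, plus strand: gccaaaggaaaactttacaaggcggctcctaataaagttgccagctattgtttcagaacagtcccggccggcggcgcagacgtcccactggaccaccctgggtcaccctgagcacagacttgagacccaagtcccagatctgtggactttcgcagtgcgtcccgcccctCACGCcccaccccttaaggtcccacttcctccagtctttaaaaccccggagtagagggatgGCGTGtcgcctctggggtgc

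Of the 6 genes, 5 had a promoter in the RefSeq table. GCGTG was present on either strand in 3 of these 5 windows, those of Arnt, Cyp1b1 and Nqo1, and in 25.9% of all 33469 windows of the same length. In Cyp1b1 the 2 copies began 81 and 20 bases before the start. In Nqo1 the 1 copy lay on the opposite strand, 10 to 6 bases before the start, and in Arnt it began 42 bases before it. The Cyp1a2 window held no GCGTG, which says only that these letters are not in these 250 bases. TATAA was present in the windows of Cyp1a2 and Nqo1, and in 24.0% of all windows. In Cyp1a2 it was matched on both strands at overlapping positions, which the run of capitals joins. These matches are letters in a sequence and were not tested as binding sites.

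In these unexposed livers 2 of the 6 genes were above background, Cyp1a2 and Nqo1, while 47.7% of all genes were. Cyp1a2 lay above the level in every rat. Nqo1 lay above it in 2 rats and below it in the other two. Ahr, Arnt, Cyp1a1 and Cyp1b1 lay below it in every rat. The count was 1 of 6 without rat 1, since Nqo1 then lay at 8.21. It was also 1 with the 98th percentile as level (8.73), which 29.3% of all genes exceeded. With the muscle gene Myh1 in the background list (9.43) it was 1 as well, and 13.6% of all genes exceeded that level. With the brightest of 27 control probe sets for Bacillus transcripts as level (7.75), all 6 genes were above it, as were 79.6% of all genes.

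**Figure D1:**
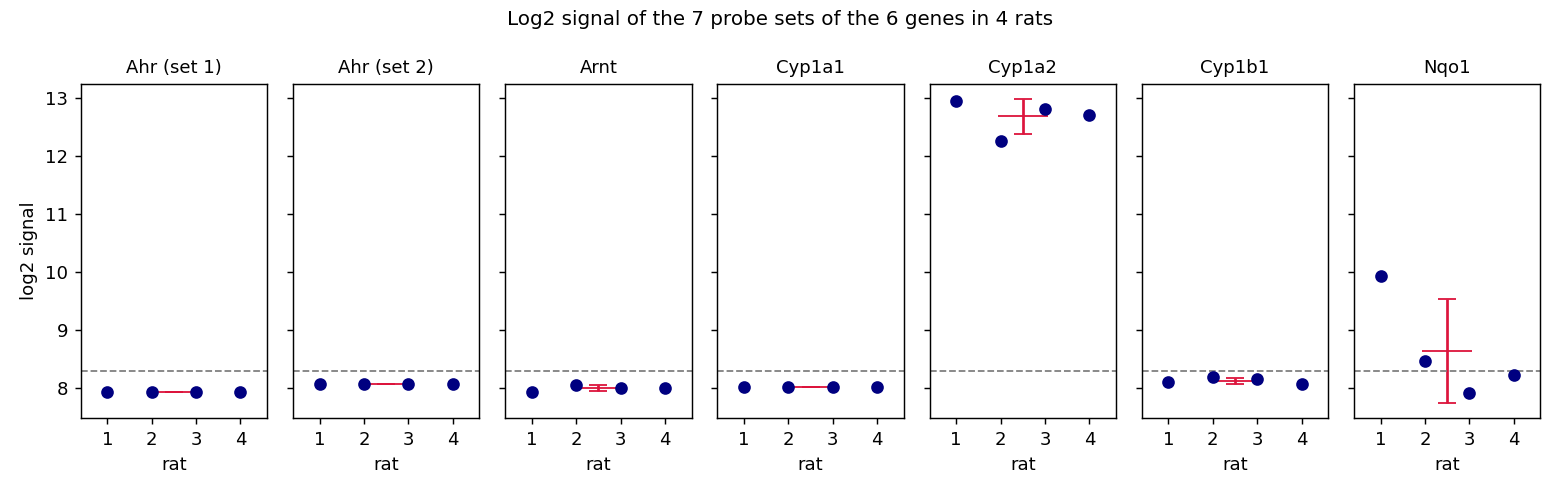
Log2 signal (y axis) of the 7 probe sets in each of the 4 rats (x axis, blue points), with the mean and SD in red and the background level of 8.30 as a dashed line. Cyp1a2 lies between 12.26 and 12.96, Nqo1 spans from 7.91 to 9.94, and the points of Ahr, Arnt, Cyp1a1 and Cyp1b1 lie under the line in every rat.

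Of the receptor itself, 1 Ahr probe set read 7.94 and the other 8.07 in each of the 4 rats. Both were flat, so these values carry no measure of how Ahr differed between the animals. They were 0.36 and 0.23 below the background level and above the signals of the Bacillus control probe sets, which ran from 6.48 to 7.75. Arnt, the partner that the receptor needs for binding DNA, read 7.93, 8.05, 8.01 and 8.01 in rats 1 to 4 (median 8.01, SD 0.05). It was lowest in rat 1 and highest in rat 2, with 0.13 between them. Among the 500 probe sets nearest to it in signal and not flat, 64.2% had a smaller SD, so its spread was near the middle of theirs.

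Among the target genes, Cyp1a1, the P450 by which receptor activation is usually measured, read 8.02 in every rat and was flat. It lay 0.27 below background. Cyp1b1, a P450 of the same family best known from tissues other than liver, read 8.10, 8.19, 8.15 and 8.08 in rats 1 to 4 (8.13 ± 0.05). It was closest of the 4 to the background level, 0.17 below it, and 65.2% of the 500 probe sets nearest in signal had a smaller SD. Its order of rats, highest in rat 2 and lowest in rat 4, was not that of Cyp1a2 or Nqo1.

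Cyp1a2, the constitutive liver enzyme of the family, which oxidises caffeine and aromatic amines, read 12.96, 12.26, 12.82 and 12.72 in rats 1 to 4 (12.69 ± 0.30). The signals of 99.5% of all probe sets were lower. Rat 2 stood below the other three by 0.57, which is 0.675 of their signal, and rat 1 was highest. The highest rat had 1.62 times the signal of the lowest. Among the 500 probe sets nearest in signal and not flat, whose median SD was 0.08, 92.4% had a smaller SD than Cyp1a2 and 38 had one as large. Much of that spread came with rat 2: without it the SD was 0.12, and 73.2% of the nearest probe sets had a smaller one.

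Nqo1, which reduces quinones with NADPH or NADH and so keeps them from cycling with oxygen, read 9.94, 8.48, 7.91 and 8.23 in rats 1 to 4 (8.64 ± 0.90). Rat 1 stood 1.73 above the mean of the other three, which is 3.32 times their signal, and had 4.07 times the signal of rat 3. The other three rats lay close to the background level, 1 above it and 2 below it. None of the 500 probe sets nearest in signal had as large an SD, where the median was 0.05. Of all 9000 probe sets that were not flat, 6 had a larger SD, and of the 3238 genes above background and not flat 2 did, Mt2A, a metallothionein, and Slc25a25, a mitochondrial carrier, which are named because the count is small. Without rat 1 the SD was 0.28, and 1 of the 500 nearest probe sets then had as large a one. Nqo1 rests on 1 probe set, so no other probe set of the gene could be set beside it.

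**Figure D2:**
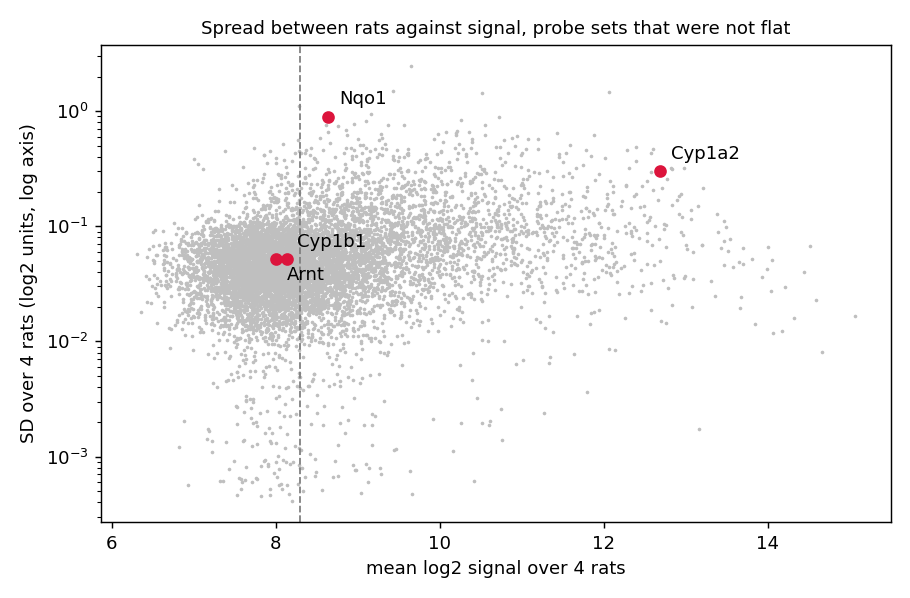
SD over the 4 rats in log2 units (y axis, log scale) against mean log2 signal (x axis) for the 9000 probe sets that were not flat (grey), with the background level of 8.30 dashed and the 4 genes of the receptor system that were not flat in red. Nqo1 at 0.90 lies near the top of the cloud at its signal, Cyp1a2 at 0.30 in its upper part, and Arnt and Cyp1b1, both at 0.05, inside it.

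The 2 genes differed in which rat stood apart. Nqo1 deviated from its own mean by 1.30 in rat 1 and by -0.73 in rat 3. Cyp1a2 was 0.27 above its mean in rat 1 and 0.13 above it in rat 3, and its low rat was rat 2 (deviation -0.43), where Nqo1 deviated by -0.16. Both had their highest signal in rat 1, as did 24.2% of the genes above background and not flat. The lowest rat was rat 3 for Nqo1, as for 18.3% of those genes, and rat 2 for Cyp1a2, as for 29.1%.

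Of the 9 other measured genes listed here for the receptor's gene battery, 5 were above background (all genes: 47.7%). The median signal of the 9 was 8.48, against 8.26 over all genes. Selenbp1, a selenium-binding protein, was flat at 10.53, and Tiparp, an ADP-ribosyltransferase that the receptor induces and that limits it, was flat at 8.48. Fmo1, a flavin monooxygenase, read 9.68, 9.94, 10.47 and 10.34 in rats 1 to 4 (10.11 ± 0.36). Inmt, an indole methyltransferase, read 8.66, 7.86, 9.67 and 8.84 (8.76 ± 0.74). Inmt was lowest in rat 2 like Cyp1a2 but highest in rat 3, and Fmo1 was lowest in rat 1, where Nqo1 and Cyp1a2 were highest. Tnfaip2 was at 9.04 ± 0.14. Below background were Aldh3a1, an aldehyde dehydrogenase strongly induced by dioxin, flat at 7.68, and the transporter Slc7a5, flat at 7.93. Cyp2s1 (7.96 ± 0.05) and Socs2 (8.27 ± 0.28) were below it too and were not flat. Socs2 was highest in rat 1 (8.67, above the level) and lowest in rat 2 (8.07), as Cyp1a2 was, while Cyp2s1 was highest in rat 3. The listed genes that were not flat thus had no order of rats in common, and the flat ones hold no order. Of the 14 listed genes, 5 had no probe set of their own here: Ugt1a6, Ugt1a7c, Gsta2, Ahrr and Ugt1a1.

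The proteins that hold the unbound receptor were above background for 4 of 4 measured genes. Hsp90ab1, the heat shock protein 90 subunit, read 11.59, 11.47, 11.70 and 11.48 in rats 1 to 4 (11.56 ± 0.11). Its co-chaperones were Ptges3 (p23) at 10.53 ± 0.12, Cdc37 at 10.24 ± 0.02 and the immunophilin Fkbp4 at 9.99 ± 0.13. The list's median SD was 0.11, against 0.06 over all genes above background and not flat, and 2 of its 4 genes were highest in rat 1 (24.2% of all such genes) and 2 in rat 3 (33.4%). The other probe set of Hsp90ab1 was highest in rat 1 (11.05 against 10.97 in rat 3), so these counts hold for the brightest probe set of each gene.

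A list of other regulators around the receptor pair (Arnt2, Bmal1, Tiparp and Nfe2l2), of which Arnt2 and Bmal1 belong to the pair's own protein family, was above background for 3 of 4 genes. Nfe2l2, the transcription factor Nrf2, which the oxidant sensor Keap1 holds back, read 9.93, 9.84, 9.74 and 9.27 in rats 1 to 4 (9.70 ± 0.29). The clock factor Bmal1 was at 8.50 ± 0.02 and Tiparp at 8.48, and Arnt2, the second Arnt gene, at 8.19 ± 0.04, below background. Arnt's partners in the response to low oxygen were above background for 2 of 3 genes, Epas1 at 10.00 ± 0.10 and Hif1a between 8.91 and 9.07, while Hif3a was flat at 7.58. Of 9 genes listed as coactivators, among which Rela is itself a transcription factor, 3 were above background (all genes: 47.7%). The 3 were Rela at 9.24 ± 0.03, Smarca4 at 8.84 ± 0.01 and Ncoa3, flat at 8.40. The histone acetylases Ep300 and Crebbp were below background. The spread of Rela and Smarca4 was below the 0.06 median of all genes.

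**Figure D3:**
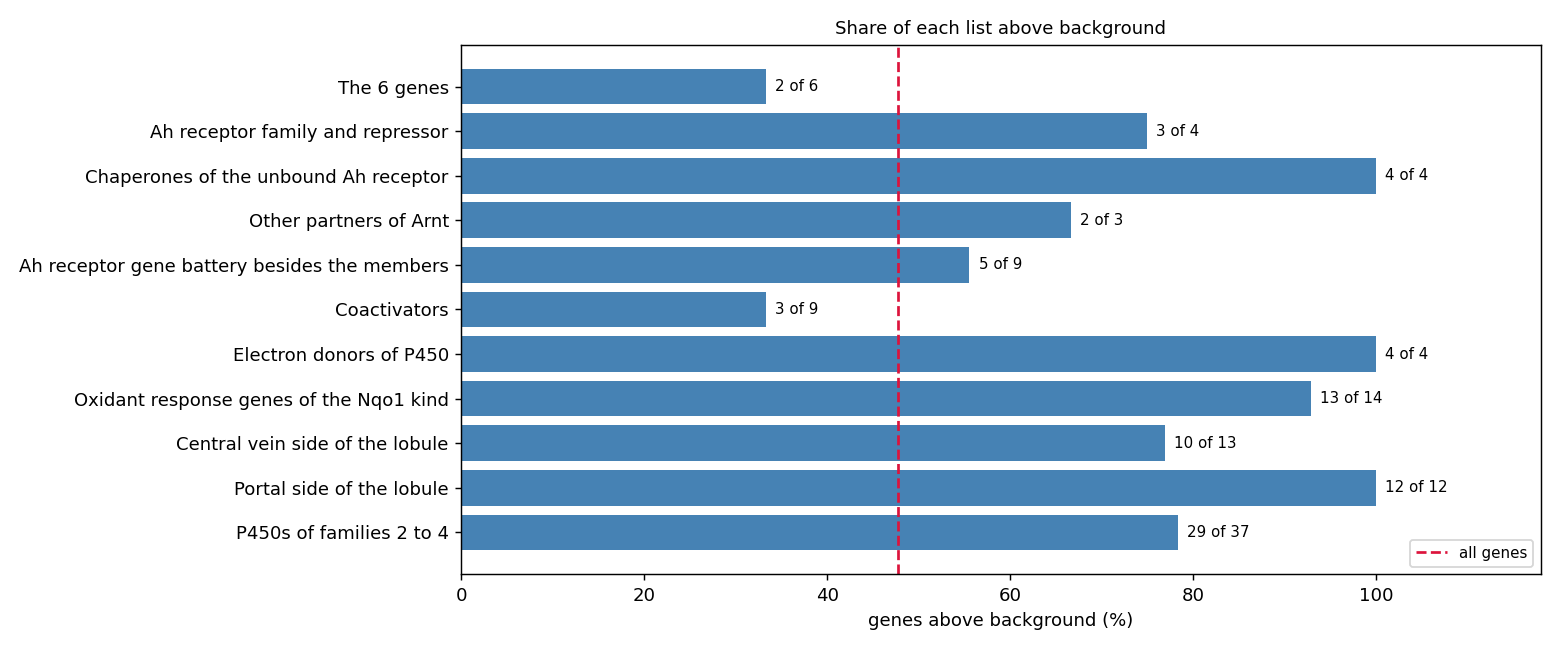
Share of genes above background (x axis, percent) for the 6 genes and for 10 lists of related genes without them, with the counts beside the bars and the share over all genes, 47.7%, dashed in red. The 6 genes (2 of 6) and the genes listed as coactivators (3 of 9) lie left of the line, and oxidant response genes (13 of 14), chaperones (4 of 4) and electron donors (4 of 4) right of it.

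Oxidant response genes, the other set to which Nqo1 belongs, were above background for 13 of 14 genes. Of the 9 that were not flat, 6 were highest in rat 1, as Nqo1 was, against 24.2% of all genes above background and not flat. The 6 were Osgin1, Gclm, Nfe2l2, Txnrd1, Srxn1 and Gsr. The list was chosen with earlier results of these data known, so the count is a description only. Osgin1, a growth inhibitor induced by oxidants, read 12.02, 10.36, 10.03 and 10.48 in rats 1 to 4 (10.72 ± 0.88), with rat 1 apart from the rest and rat 3 lowest, as in Nqo1. Gclm, the modifier subunit of the enzyme that starts glutathione synthesis, read 10.31, 9.68, 9.98 and 9.74 (9.93 ± 0.29). Its catalytic partner Gclc was highest in rat 2 instead, at 9.98 against 9.94 in rat 1. The SD was 0.29 for Nfe2l2 as for Gclm, and smaller for Srxn1 at 0.13, Txnrd1 at 0.12 and Gsr at 0.04. The second probe set of Txnrd1 was highest in rat 3 (9.53 against 9.47 in rat 1), so the count of 6 holds for the brightest probe set of each gene.

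Ephx1, the microsomal epoxide hydrolase, read 12.64, 13.21, 12.08 and 12.49 in rats 1 to 4 (12.61 ± 0.47). It was highest in rat 2, and shared with Nqo1 its lowest rat, rat 3. Nqo2, the sister gene of Nqo1, read 8.73, 8.66, 8.81 and 8.71 (8.73 ± 0.06), lowest in rat 2 and highest in rat 3. Hmox1, the heme oxygenase that oxidants induce, was flat at 9.20, as were Keap1 (8.75), Mafg (8.83) and Me1 (8.61). The list's median SD was 0.16, against 0.06 over all genes above background and not flat.

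**Figure D4:**
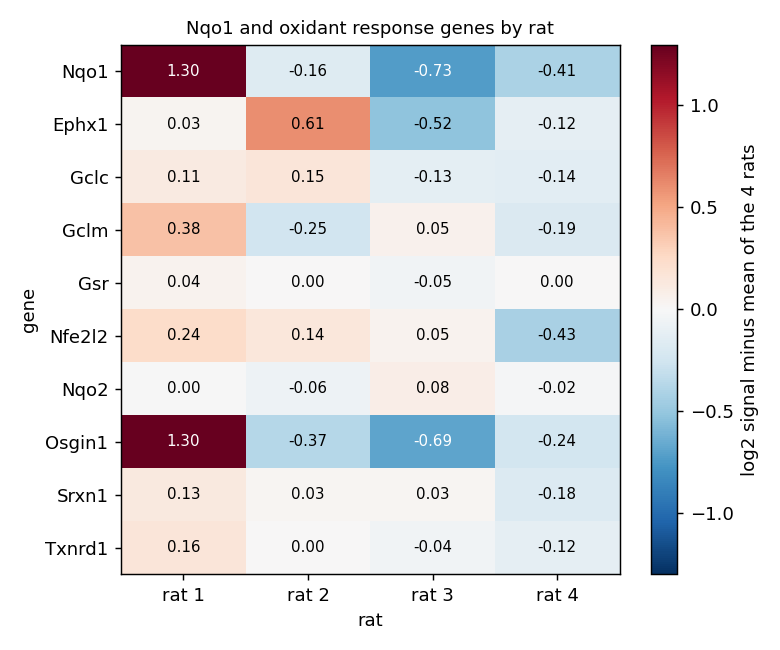
Log2 signal minus the mean of the 4 rats (colour and printed number) for Nqo1 and the 9 oxidant response genes above background and not flat (rows) in each rat (columns). Nqo1 and Osgin1 are both 1.30 above their means in rat 1 and lowest in rat 3, Ephx1 is highest in rat 2, and Gclm is next to them in rat 1 at 0.38.

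The gene nearest to Nqo1 over the 4 rats was Osgin1, by the mean absolute difference between the deviations of the 2 genes from their own means, which was 0.10. The search covered 58 probe sets above background, not flat, and with an SD of at least 50% of that of Nqo1. The next were Arrdc3, an arrestin-like protein, at 0.23, Hamp, the iron hormone hepcidin, at 0.31, Cavin3 at 0.43 and Scd, the fatty acid desaturase, at 0.50. Osgin1, Arrdc3, Hamp and Cavin3 were highest in rat 1, and Scd was highest in rat 2. The likeness rests on rat 1: over rats 2 to 4 alone, Osgin1 differed from Nqo1 by 0.13 and 0 of the 5 were among the nearest 5.

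The genes nearest to Cyp1a2, among 485 probe sets chosen in the same way, were Ppm1k, a mitochondrial phosphatase, at 0.05, Cyp51, the lanosterol demethylase, at 0.06, Sqle, squalene epoxidase, at 0.06, Sc5d, a sterol desaturase, at 0.06, and Fdft1, squalene synthase, at 0.06. Ppm1k read 9.61, 8.98, 9.49 and 9.51 in rats 1 to 4, and Fdft1 10.21, 9.55, 10.18 and 10.14. All 5 were lowest in rat 2, which the choice of genes by their likeness to Cyp1a2 largely fixes. The likeness rests on that rat: over the other three, 0 of the 5 were among the nearest 5. These nearest genes come from a search over few animals and are a description of these 4 livers.

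**Figure D5:**
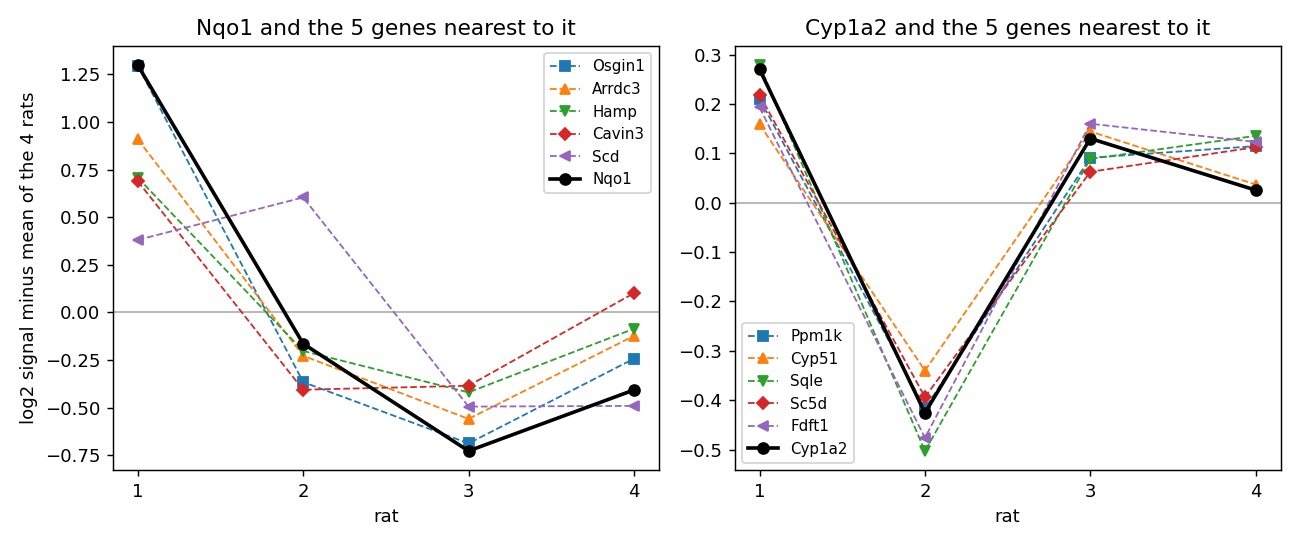
Log2 signal minus the mean of the 4 rats (y axis) in each rat (x axis) for Nqo1 (left, black) and Cyp1a2 (right, black), each with the 5 genes nearest to it in colour. The Nqo1 panel is led by rat 1, where Nqo1 and Osgin1 both lie at 1.30, and in the Cyp1a2 panel all 6 genes are lowest in rat 2. The panels have different y scales.

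The enzymes that pass electrons to P450s were above background for 4 of 4 genes. P450 reductase (Por) read 9.52, 9.25, 9.68 and 9.04 in rats 1 to 4 (9.38 ± 0.28), cytochrome b5 (Cyb5a) was at 12.45 ± 0.03, Cyb5r3 at 10.93 ± 0.15 and Cyb5b at 9.44 ± 0.21. Cyb5r3 and Cyb5b were lowest in rat 2, as Cyp1a2 was, and Por was lowest in rat 4. P450s of families 2 to 4 were above background for 29 of 37 genes, and 13 of the 25 that were not flat were lowest in rat 2, against 29.1% of all such genes. Their median SD was 0.19, under the 0.30 of Cyp1a2. The brightest were the male-specific steroid hydroxylase Cyp2c11 at 13.54 ± 0.08 and the ethanol oxidase Cyp2e1 at 13.40 ± 0.09, both with less spread than Cyp1a2, and the fatty acid hydroxylase Cyp4a3 had the largest SD at 10.56 ± 0.62.

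Cyp1a2 is known to be made mostly around the central vein of the liver lobule. Of 9 genes listed for that side, above background and not flat, 6 were lowest in rat 2, and of 10 listed for the portal side 3 were (29.1% of all such genes). Ces1d, a carboxylesterase, was lowest there at 11.11 against 11.88 to 12.12 in the other rats. Glul, glutamine synthetase of the cells next to the central vein, was lowest there too by its brightest probe set, but at 10.54 against 10.56 in rat 1, and 1 of its other probe sets was lowest in rat 1. Oat, an ornithine enzyme of the same cells, had the largest SD of its list (10.39 ± 0.54) and was lowest in rat 1 instead, at 9.76. Of the 9, 2 went the other way and were highest in rat 2. They were Gstm1, a glutathione transferase (12.47 ± 0.22, with 12.79 in rat 2 against 12.30 to 12.41), and Aldh1a1 (9.43 against 8.58 to 9.40). On the portal side Ass1, of the urea cycle, was lowest in rat 2 (12.84 ± 0.32) and albumin (Alb) was at 15.06 ± 0.02. The 2 lists differ in function as well as in position, so the counts do not measure zones.

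Markers of other cells and of RNA ends also differed between the rats. In rat 2, where Cyp1a2 was lowest, 5 of 6 Kupffer cell and macrophage genes above background and not flat were at their highest (21.6% of all such genes), with a mean over the 7 measured of 9.98 there and 9.76 to 9.90 in the others. Of 5 stellate cell genes above background and not flat, 3 were highest in rat 2 (21.6% of all such genes), with a median deviation of 0.22 there. This was not particular to rat 2, since the median deviation was 0.17 in rat 4 and the mean over all measured stellate genes was 8.50 in each of these rats. In rat 3, where Nqo1 was lowest, 4 of these 5 were lowest (18.3% of all such genes), and the mean over the 12 measured was 8.14 there and 8.36 to 8.50 in the others. Endothelial genes went the other way from the Kupffer cell genes in rat 2. Of 3 above background and not flat, 2 were lowest in rat 2 (29.1% of all such genes), with a median deviation of -0.11 there. In rat 3, 2 of the 3 endothelial genes were highest (33.4% of all such genes), with a median deviation of 0.16. The 10 hepatocyte genes had a mean of 13.02 in rat 2 and 12.88 to 13.13 in the other rats. In rat 1, where Nqo1 was highest, the 3′ probe set of beta-actin read 0.85 more than the 5′ probe set, against 0.54 to 0.66 in the other rats, and for Gapdh the gap was 0.48 against 0.52 to 0.54. Blood cell genes had a mean of 9.14 in rat 1, against 8.88 to 9.09, with beta-globin (Hbb) at 11.91 there. The means of the hepatocyte genes (12.88) and of the Kupffer cell genes (9.76) were at their lowest in rat 1. The low hepatocyte mean came mostly with Tat (9.52 against 10.30 to 11.10) and Apoa1 (12.34 against 12.92 to 13.03). The median deviation of the hepatocyte genes in rat 1 was only -0.007. The part of these cell markers and RNA ends in the values of Cyp1a2 and Nqo1 was not tested. In bulk liver fewer cells of a type and less RNA per cell cannot be told apart.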

How the data were processed

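Total RNA of 4 rat livers was measured, each on its own 1-colour array. The deposited values are log2 signals per probe set. The submitters' processing notes list R 2.4.1 with affy 1.12.2 and both methods, GCRMA and RMA, and which of the pair made these values is not given in the sources used here. Per the scanner settings the arrays were RAE230A, and the labels' protocol names RAE230-2. All arrays were run on 1 day with 1 lot, on modules 1 to 4 of fluidics station 1, so module and rat cannot be told apart. No rescaling was applied before the values reported.

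Of the probe sets, 12789 carry 1 gene symbol in the platform annotation, and 12754 of these were matched to RefSeq's gene table by gene number, for names only. A list gene was represented by its brightest probe set. The 4 values of a member are given with mean and SD. No test between rats was made, since each rat had 1 array. SDs were ranked among the 500 probe sets nearest in mean signal that were not flat. Named were all members, the list genes above background, and the 5 genes nearest to each member above background and not flat. The number of arrays limits precision. The members and lists were chosen with earlier results of these data known, Myh1 being left out of the background list because its probe sets had been bright. The ranking and the search for like genes were tested on simulated data. These held strong planted patterns, nearly the same in each pair of genes, over even noise and without flat probe sets. The test thus checks the calculation and not how reliable a search over 4 livers is. Python 3.11.15, numpy 2.4.6, pandas 2.3.3 and scipy 1.17.1 were used. Alternatives covered the background level, the probe set per gene, the suffixes, the scaling, the spread measure, the neighbours and leaving out each rat.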

Additional observations from a re-analysis of the deposited data

Results flagged for a closer look

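Of 80 named genes that were not flat, 4 had 1 rat far from the other three relative to the range of the 4 values. Chance gives about 5% of genes, so the count was near that share. The 80 include the genes nearest to Nqo1 and Cyp1a2, which were chosen by their pattern over the rats, and for these the share does not hold. Fdft1 is one of them: it was at 9.55 in rat 2, the low rat of Cyp1a2, against 10.14 to 10.21 in the others. Cyp2j4 was at 8.71 in rat 2 against 9.03 to 9.08. Cyp3a2 was at 12.91 in rat 4 against 12.69 to 12.73. Cps1, a urea cycle enzyme on the portal list, was at 12.67 in rat 3 against 12.41 to 12.44. Of the 6 receptor system genes, Ahr and Cyp1a1 were flat and so were not examined, and none of the others was among the 4. Nqo1 was not, because its values outside rat 1 were themselves spread from 7.91 to 8.48.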

How the results depend on the processing

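Of the 6 genes, 2 were above background (all genes: 47.7%). This count was 1 with the 98th percentile (all genes: 29.3%) and with Myh1 in the background list (all genes: 13.6%). It was also 1 without probe sets whose names end in _s_at, _x_at or _a_at (all genes: 48.6%), which leaves out the Nqo1 probe set. It was 6 with the Bacillus controls as level (all genes: 79.6%). Leaving out each rat gave 1 to 2. With the other alternatives (90th percentile, median of probe sets, median over rats, quantile normalization) it stayed at 2. Of 104 genes of the lists, 81 were above background (all genes: 47.7%). Over the alternatives the count ran from 57 with Myh1 in the background list (all genes: 13.6%) to 96 with the Bacillus level (all genes: 79.6%). The SD of Cyp1a2 was 0.30, with 0.12 to 0.37 when each rat was left out, 0.18 as a scaled median absolute deviation and 0.29 after quantile normalization. The 5 genes nearest to Cyp1a2 were also its nearest 5 by the largest absolute difference, and for Nqo1 4 of 5 were. Leaving out rat 1 for Nqo1 and rat 2 for Cyp1a2 in the ranks and the searches was chosen after seeing the data. No paired analysis was possible because there is 1 group. The background level rests on few probe sets, of which 4 lay above it, led by Crem at 9.49 and Syp at 9.06.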
